A study of Mus musculus with 2 samples.

Results

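Hox genes encode homeodomain transcription factors that give cells their position along the body axis, and in the mouse they lie in 4 clusters on separate chromosomes. Genes of the same number in different clusters are paralogues, copies of an ancestral gene, and within a cluster all are transcribed in the same direction, from number 13 at the start towards number 1. The posterior genes pattern the female reproductive tract: Hoxa9 marks the oviduct, Hoxa10 the uterus, Hoxa11 the uterus and cervix, and Hoxa13 the cervix and upper vagina. In mice, loss of Hoxa10 or Hoxa11 impairs implantation and the decidual response of the uterine stroma. The genes described here are the protein-coding RefSeq genes named Hoxa, Hoxb, Hoxc or Hoxd with a number, 39 of the 21787 protein-coding genes placed on the chromosomes of the mouse build mm10. A peak was assigned to a gene when its summit lay in the gene span, from annotated start to end, introns included.

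The data were a list of regions enriched in N6-methyladenosine (m6A), an internal methyl mark of RNA that is often found near the stop codon. The m6A group was 1 library of fragments bound by an anti-m6A antibody, from whole uterus of wild-type C57BL/6 mice of gestation days 4 and 8, pooled in equal amounts by its label. The input group was 1 library of whole uterus of wild-type C57BL/6 mice without antibody, and its label names neither day nor pool. The names of the peaks begin with D8 and hold no D4, so the makeup of the pool rests on the label. With 1 library per group there was no replicate and no test, and the days cannot be told apart. The list held 38366 peaks, with 4 to 369 IP fragments at their summits. Of 18 marker genes of uterine stroma, smooth muscle, epithelium and endothelium, 18 carried a peak, against 55.7% of all protein-coding genes. Of 13 markers of trophoblast and embryo, 3 did (Hand1, Tfap2c and Eomes, at 13-fold to 17.5-fold from 18 to 34 IP fragments), while Sox2, Pou5f1, Otx2, Mesp1, Mixl1, Elf5, Afp and the embryonic globin genes Hbb-y, Hba-x and Hbb-bh1 did not. Embryos also express Hox genes, and the part of embryonic RNA in the Hox peaks was not tested. In this bulk tissue, fewer cells of a type and less RNA per cell cannot be told apart, and a missing peak does not separate an unmethylated transcript from one that is scarce or absent.

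Deposited peaks covered the annotated start in 4 of 24 RefSeq windows at Hox gene starts, each running from 250 bases before the start to 50 after it. Over all 32851 windows of the table, 9.19% were overlapped by a peak. The 24 windows belong to 22 of the 39 genes. The 4 windows are shown because they place peaks of posterior Hox genes over an annotated transcript start. They are given 5′ to 3′ on the gene strand in build GRCm38.p6, and the capitals mark GGAC, the core of the common m6A sequence, on that strand.
Hoxa11 (chr6:52245761-52246060, minus strand): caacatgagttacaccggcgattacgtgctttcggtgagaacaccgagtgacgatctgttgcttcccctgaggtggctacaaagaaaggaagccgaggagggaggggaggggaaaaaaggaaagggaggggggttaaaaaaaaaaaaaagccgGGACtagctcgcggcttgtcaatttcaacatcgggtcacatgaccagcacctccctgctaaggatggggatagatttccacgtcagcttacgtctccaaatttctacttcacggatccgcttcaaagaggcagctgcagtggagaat
Hoxd9 (chr2:74697513-74697812, plus strand): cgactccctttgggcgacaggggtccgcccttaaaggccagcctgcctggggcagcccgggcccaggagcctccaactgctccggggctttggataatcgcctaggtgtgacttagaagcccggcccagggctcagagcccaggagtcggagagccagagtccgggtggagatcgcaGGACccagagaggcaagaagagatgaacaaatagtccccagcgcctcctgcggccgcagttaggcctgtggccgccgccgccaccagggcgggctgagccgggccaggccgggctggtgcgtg
Hoxd10, internal start (chr2:74691641-74691940, plus strand): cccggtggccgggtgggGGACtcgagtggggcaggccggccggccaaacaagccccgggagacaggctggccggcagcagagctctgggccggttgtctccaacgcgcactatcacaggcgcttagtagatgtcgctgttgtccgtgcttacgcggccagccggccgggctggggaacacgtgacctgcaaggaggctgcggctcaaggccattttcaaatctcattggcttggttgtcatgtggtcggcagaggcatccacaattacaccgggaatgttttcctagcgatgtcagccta
Hoxd11, internal start (chr2:74682073-74682372, plus strand): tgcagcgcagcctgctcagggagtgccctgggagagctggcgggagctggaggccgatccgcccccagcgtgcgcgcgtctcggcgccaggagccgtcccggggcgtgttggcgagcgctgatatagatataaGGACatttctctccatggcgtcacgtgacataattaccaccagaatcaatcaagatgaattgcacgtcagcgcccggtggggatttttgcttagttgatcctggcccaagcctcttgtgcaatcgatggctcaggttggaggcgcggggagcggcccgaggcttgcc
Each of these 4 windows held 1 GGAC. It began at base 154, 178, 18 and 134 of the windows of Hoxa11, Hoxd9, Hoxd10 and Hoxd11. All 4 thus lay within the 250 bases before the annotated start, outside any RNA that begins there. In Hoxd10 the peak begins at 74691670, after the GGAC. Among all 32851 windows, 65.6% held GGAC on the gene strand and 66.1% on the other strand, and 16 of the 24 Hox windows held it on the gene strand, so a match is common and describes only the letters. The peak covered all 300 bases of the Hoxa11, Hoxd9 and Hoxd11 windows and 271 bases of the Hoxd10 window. The summit lay 196 bases after the start in Hoxa11 and 258 bases after it in Hoxd10. It lay 145 bases before the annotated start of Hoxd9, outside any annotated gene, and 126 bases before the internal start of Hoxd11. A summit fell inside the window for Hoxd9 and Hoxd11, and in 2.02% of all windows.

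Across the family, a peak was present in 22 of 39 Hox genes (56.4%, with an exact 95% Clopper-Pearson interval of 39.6 to 72.2). Over all protein-coding genes the share was 55.7%, so the count for the family as a whole stood at the background. A summit in no other protein-coding span was present in 19 of 39 Hox genes, against 52.7% of all protein-coding genes. A summit in no other annotated gene was present in 15 of 39, against 51.1%. The first of these Hox shares lay close to that of all genes and the second lay below it, and neither difference was tested. Peaks with a −log10 q of at least 5 were present in 21 Hox genes, against 53.1%, and peaks of at least 4-fold in 22, against 51.5%. The 22 genes held 42 distinct peaks, of which 5 lay in the spans of 2 Hox genes at once. Hoxa had a peak in 7 of 11 genes, Hoxb in 7 of 10 and Hoxd in 6 of 9, while Hoxc had one in 2 of 9. The shares were 63.6% (30.8 to 89.1) in Hoxa, 70.0% (34.8 to 93.3) in Hoxb, 66.7% (29.9 to 92.5) in Hoxd and 22.2% (2.81 to 60.01) in Hoxc. These intervals overlap, and neighbouring genes of a cluster are not independent.

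**Figure D1:**
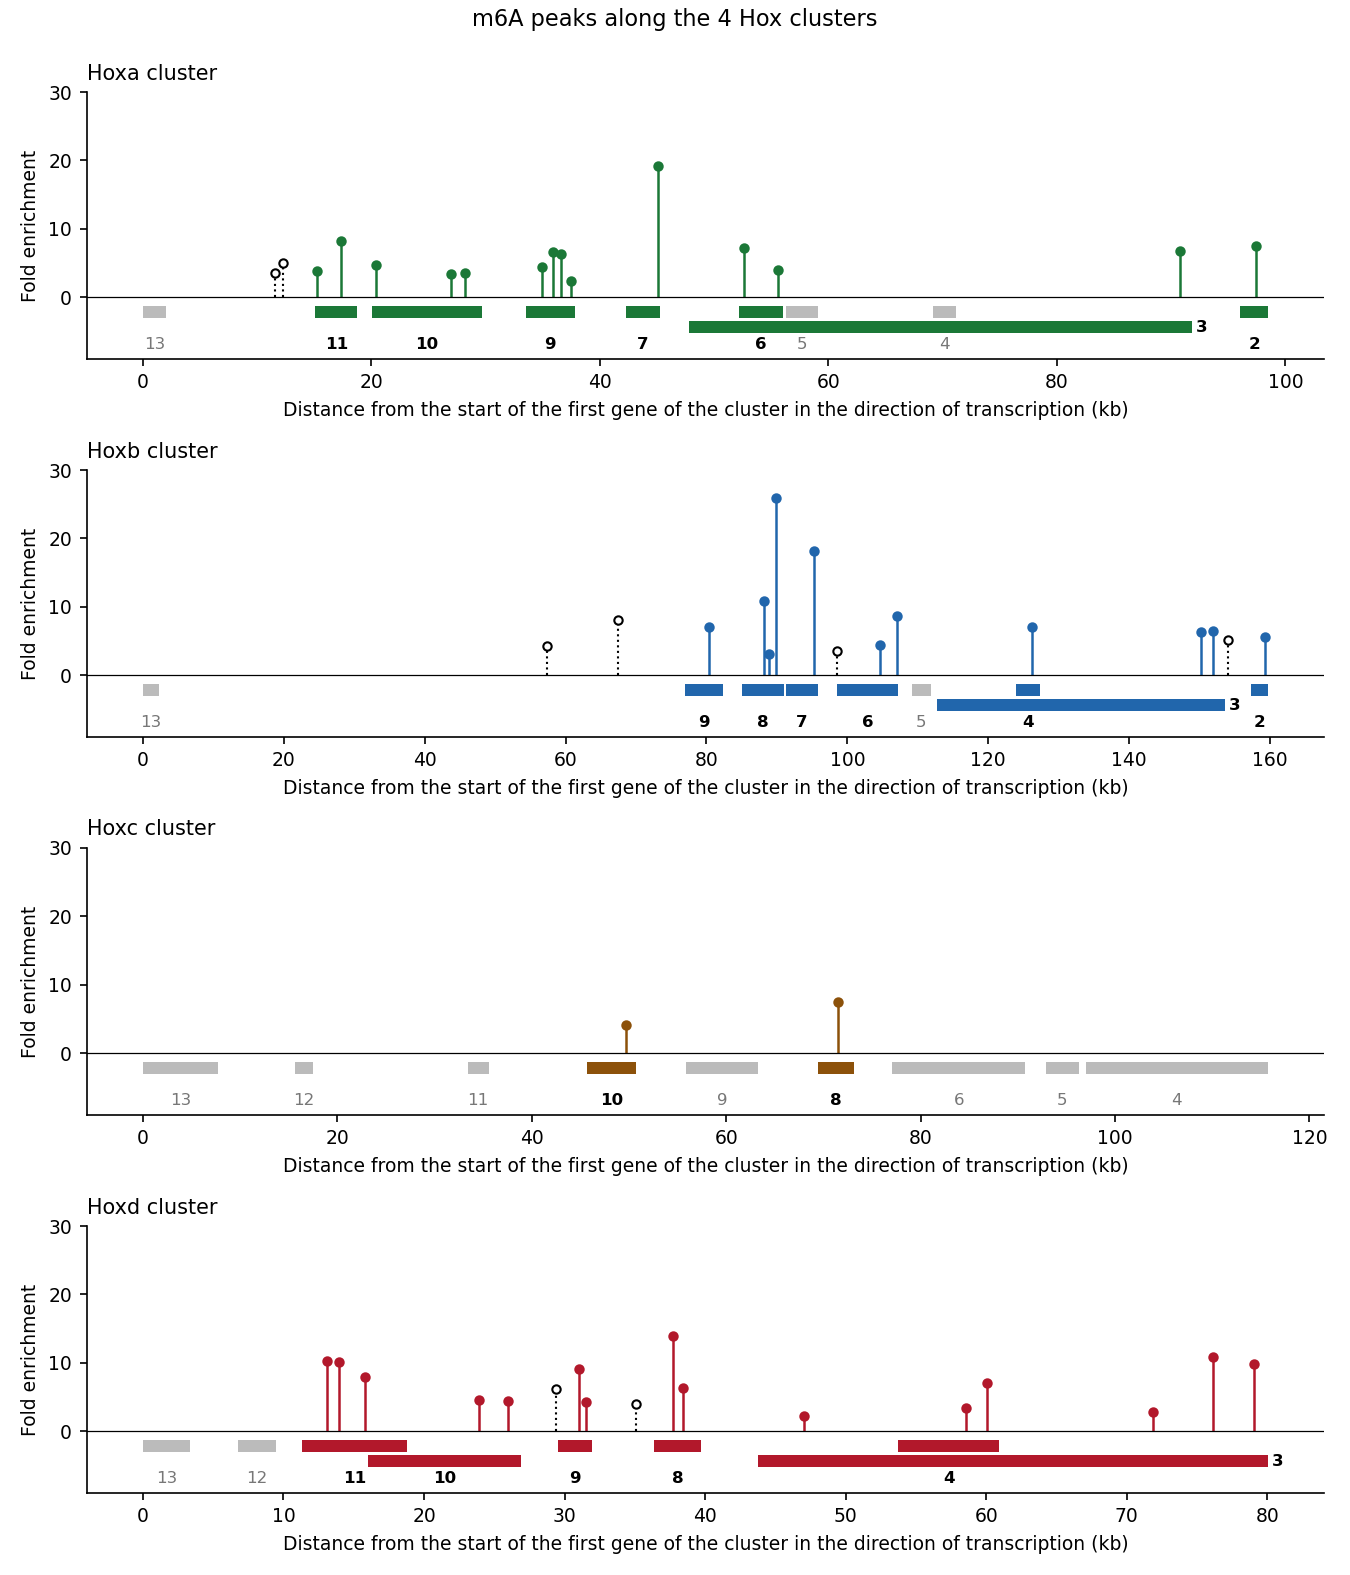
Fold enrichment of each m6A peak (vertical axis, authors' value) against distance in kb from the start of the first gene of its cluster, in the direction of transcription, for the 4 Hox clusters. Bars below the axis are gene spans with their paralogue number (coloured with a peak, grey without), filled points are the 42 peaks in Hox spans, and open points are the 8 other peaks between the outer genes; the Hoxc panel holds 2 peaks and the genes numbered 12 and 13 hold none. Group 1 is not drawn.

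Peaks were present in groups 2 to 4 and 6 to 11, and none lay in groups 5, 12 and 13. None of the 4 genes of group 13 (interval up to 60.2%) or the 2 of group 12 (up to 84.2%) had a peak. Each of these intervals holds the 55.7% of all protein-coding genes. Together the 2 groups had a peak in 0 of 6 genes. They are put together here because neither held a peak, and they include neighbours within a cluster, so the pool was not tested. Over groups 9 to 13 as a whole, 8 of 16 genes had a peak (50%, 24.7 to 75.3), close to the 55.7%. The spans of the 6 genes of groups 12 and 13 ran from 1784 to 7684 bases, against a median of 17198 over all protein-coding genes. Hoxa13, which acts in the cervix and vagina, was thus without a peak, as were Hoxd13 of the digits and external genitalia, Hoxb13 of the prostate and Hoxc13 of the hair follicle. Group 5 also had a peak in 0 of 3 genes (Hoxa5, Hoxb5 and Hoxc5). Hoxa5, a regulator of lung development, lies beside Hoxa6, which held 2. In groups 9 to 11, those of the uterus and its neighbours, 8 of 10 genes had a peak (80%, 44.4 to 97.5), an interval that holds the 55.7% of all protein-coding genes. Each of groups 2, 3, 7, 8 and 10 had a peak in every gene, with 2, 3, 2, 3 and 3 genes. The other genes without a peak were Hoxb1, Hoxd1, Hoxa4, Hoxc4, Hoxc6, Hoxc9, Hoxc11, Hoxc12 and Hoxd12. Genes with a peak had a median span of 4831.5 bases and genes without one 2693 bases.

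Hoxa10, a progesterone-responsive gene needed for decidualization (NCBI Gene 15395, chromosome 6, 52231197 to 52240854), carried 3 peaks. The peak at 52240354 to 52240694 stood at 4.72-fold, with a summit 335 bases from the gene start, and had 65 IP fragments over a background of 12.99. The peaks at 52232423 to 52232903 and 52233559 to 52234116 stood at 3.59-fold and 3.35-fold, with summits at 84.6% and 71.6% of the span. Fold enrichment is the authors' ratio of IP fragments to local background at the summit, with 1 fragment added to each. The background is the expected number of fragments that the peak caller took from the input around the summit. At 7.43% of all peaks it stood at the lowest, genome-wide value. Exact 95% Poisson intervals were computed from the IP fragment count at a fixed background, and were 3.66 to 5.99, 3.09 to 4.15 and 2.49 to 4.42. They overlap for all 3 peaks, and like the intervals below they cover counting error only. The peak at 52232423 had 180 IP fragments and a background of 49.4, both the highest among the 42 Hox peaks. Hoxa10 thus held the most deeply covered Hox peak, while its highest fold was among the 3 lowest of the 22 genes.

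Hoxa11, needed for the uterine stroma and glands (NCBI Gene 15396, chromosome 6, 52242105 to 52245810) carried 2 peaks that together covered 60.04% of its span. The higher, at 52242278 to 52243736, had 147 IP fragments against a background of 16.9, or 8.26-fold (6.99 to 9.70). The second, at 52245045 to 52246800, is the peak over the gene start shown above and reached 3.85-fold (3.26 to 4.52) from 148 fragments over 37.7. The IP fragments of the 2 peaks were nearly equal and the backgrounds were not, and the intervals of the folds do not overlap. The summit of the first lies also in LOC115490410 and that of the second in Hoxa11os, a long non-coding RNA transcribed from the opposite strand. The peak list carries no strand, so the peaks of Hoxa11 and of these RNAs cannot be told apart.

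Hoxa9, the gene of the future oviduct (NCBI Gene 15405, chromosome 6, 52223097 to 52227370), had 4 peaks, the most in the Hoxa cluster. The highest of the 4, at 52224854 to 52225098, reached 6.62-fold (4.90 to 8.76). The peak at 52224066 to 52224650 reached 6.27-fold (5.12 to 7.59) with 102 IP fragments, the most in the gene. The peaks at 52225576 and 52223394 stood at 4.49-fold (3.15 to 6.22) and 2.38-fold (1.72 to 3.20). The last of these lay 315 bases from the gene end, and its interval did not overlap those of the 2 highest.

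In the Hoxd cluster, Hoxd9 to Hoxd11 carried peaks, while the more posterior Hoxd12 and Hoxd13 had none. Hoxd11, which acts with Hoxa11 in the forearm and kidney (NCBI Gene 15431, chromosome 2, 74679558 to 74687016), had 3 peaks at 10.2-fold (8.52 to 12.2), 10.2-fold (8.04 to 12.7) and 7.93-fold (6.69 to 9.32). They rested on 123, 77 and 144 IP fragments and began at 74680538, 74682007 and 74683724. All 3 intervals overlap, and the order among the peaks was not tested. Hoxd10, a gene of hindlimb motor neurons (NCBI Gene 15430, 74684273 to 74695106), had 2 peaks of 4.52-fold (3.82 to 5.31) and 4.41-fold (3.65 to 5.28) from 146 and 115 fragments. Its folds were below those of Hoxd11, without overlap of the intervals, and its backgrounds of 31.5 and 25.3 were above the 11.1, 6.68 and 17.3 of Hoxd11. The spans of both genes overlap, and when 1 shared base links a peak to a gene, the 7.93-fold peak of Hoxd11 counts for Hoxd10 too and its highest fold becomes 7.93. Hoxd9, which acts with Hoxa9 in the limb (NCBI Gene 15438, 74697763 to 74700208) had 2 peaks of 9.08-fold (7.24 to 11.3) and 4.28-fold (3.23 to 5.56). A further peak at 74697477 to 74698234 reached 6.11-fold (4.56 to 8.02), but its summit lay 145 bases before the annotated start and is not counted. With the part of that peak that reaches past the start included, peaks covered 75.1% of the Hoxd9 span.

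The peaks of the remaining paralogues of groups 9 to 11, Hoxb9 and Hoxc10, rested on few fragments. Hoxb9, a gene of the thoracic skeleton (NCBI Gene 15417, chromosome 11, 96271330 to 96276595), had 1 peak of 7.01-fold (4.36 to 10.8) from 19 IP fragments. Hoxc10, a lumbar patterning gene (NCBI Gene 209448, chromosome 15, 102966796 to 102971898), had 1 peak of 4.10-fold (1.79 to 8.67) from 5 fragments at the genome-wide background of 0.462. Within group 10 the highest folds of Hoxa10, Hoxd10 and Hoxc10 had overlapping intervals. In group 11 those of Hoxa11 and Hoxd11 overlapped as well, and in group 9 those of Hoxa9, Hoxb9 and Hoxd9.

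**Figure D2:**
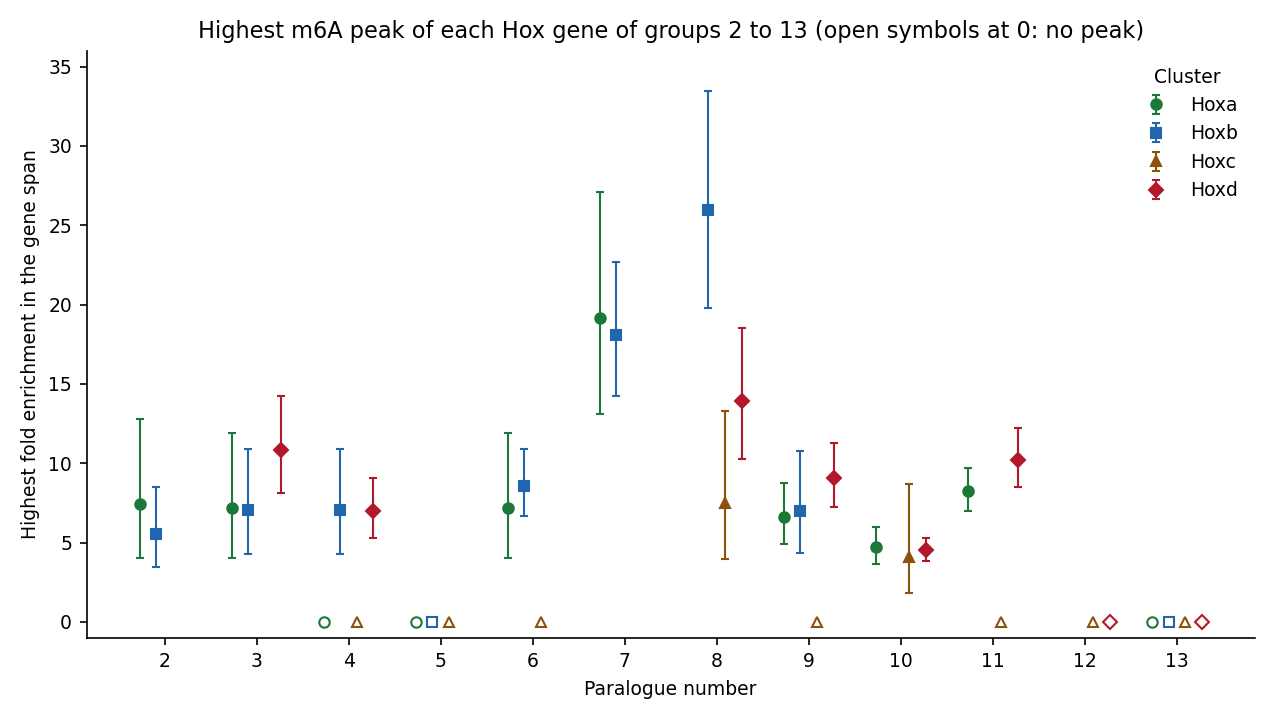
Highest fold enrichment in each Hox gene of groups 2 to 13 (vertical axis) by paralogue number (horizontal axis), with colour and symbol for the cluster and exact 95% Poisson intervals on the IP fragments as bars. Open symbols at 0 are genes without a peak. Hoxb8, Hoxa7 and Hoxb7 stand highest, at 25.9, 19.2 and 18.1, and the 3 genes of group 10 lie between 4.10 and 4.72.

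The highest folds of the family were in groups 7 and 8, genes of trunk patterning. Hoxb8, whose loss in mice causes excessive grooming (NCBI Gene 15416, chromosome 11, 96279401 to 96285325), reached 25.9-fold (19.8 to 33.5) at 96284015 to 96284605. This peak had 57 IP fragments over a background of 1.24, and its summit stood at 81.0% of the span. Hoxb8 held 2 further peaks of 10.9-fold (6.70 to 16.9) and 3.15-fold (1.56 to 5.88), from 18 and 8 fragments.

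Hoxa7 and Hoxb7, paralogues of the thoracic region, each carried 1 peak close to the gene end. Hoxa7 (NCBI Gene 15404, chromosome 6, 52215623 to 52218573) reached 19.2-fold (13.1 to 27.1) at 52215602 to 52216019, with a summit 157 bases from its end. Hoxb7 (NCBI Gene 15415, chromosome 11, 96285604 to 96290163) reached 18.1-fold (14.2 to 22.7) at 96289316 to 96289842, with a summit 587 bases from its end. Hoxa7 had 30 IP fragments over 0.618 and Hoxb7 had 73 over 3.09. The interval of Hoxb8 overlapped only those of Hoxa7 and Hoxb7 among the other 21 genes.

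Hoxd8, a gene of the trunk (NCBI Gene 15437, chromosome 2, 74704615 to 74707933) had 2 peaks of 13.9-fold (10.3 to 18.5) and 6.39-fold (5.23 to 7.73), from 46 and 104 fragments. The spans of Hoxd8 and of the non-coding gene Gm38462 share both summits. Hoxc8, a gene of thoracic vertebrae and motor neurons (NCBI Gene 15426, chromosome 15, 102990539 to 102994275), reached 7.53-fold (3.96 to 13.3) from 10 fragments, again at the genome-wide background of 0.462. The Hoxc8 and Hoxc10 peaks were the 2 Hox peaks at that level and the only peaks of the Hoxc cluster. Hoxb6, active in lateral mesoderm (NCBI Gene 15414, chromosome 11, 96292814 to 96301569) had 2 peaks of 8.60-fold (6.68 to 10.9) and 4.36-fold (2.71 to 6.69), both also inside the antisense gene Hoxb5os. Another summit, of 3.48-fold, lay 1 base outside the Hoxb6 span and was not counted. Hoxa6, a gene of thoracic patterning (NCBI Gene 15403, chromosome 6, 52204858 to 52208672) had 2 peaks of 7.18-fold (4.06 to 11.9) and 3.91-fold (2.30 to 6.30), which lay in the long Hoxa3 span as well.

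The anterior genes, which pattern hindbrain, pharyngeal arches and neck, had thinner peaks except in Hoxd3. Over groups 2 to 4, 7 of 9 genes had a peak (77.8%, 40.0 to 97.2), an interval that holds the 55.7% of all protein-coding genes. These 7 genes carried 14 peaks, 2 of them shared with Hoxa6. The median was 18.5 IP fragments, against 79 over the 18 peaks of groups 9 to 11. Hoxa2, of the hindbrain and facial skeleton (NCBI Gene 15399, chromosome 6, 52162417 to 52164831), reached 7.42-fold (4.01 to 12.8) from 11 fragments. Hoxb2, also of the hindbrain (NCBI Gene 103889, chromosome 11, 96351632 to 96354020) reached 5.57-fold (3.46 to 8.53) from 19. Hoxd3, a gene of the cervical vertebrae (NCBI Gene 15434, chromosome 2, 74711993 to 74748271), had 6 peaks of 2.21-fold to 10.8-fold (8.10 to 14.2), the most in the family. Its long span holds Hoxd4, a further gene of the cervical vertebrae (NCBI Gene 15436, 74721978 to 74729160), and 2 of the 6, of 3.38-fold and 7.02-fold (5.32 to 9.10), lay in both.

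The spans of Hoxa3 and Hoxb3 likewise hold other Hox genes. Hoxa3, needed for the thymus and parathyroid (NCBI Gene 15400, chromosome 6, 52169059 to 52213067), had 1 peak in no other coding span, at 6.8-fold (3.58 to 11.99) and 1028 bases from its end. Hoxb3, of hindbrain and pharyngeal arches (NCBI Gene 15410, chromosome 11, 96307101 to 96347930) shared a peak of 7.03-fold (4.31 to 10.9) with Hoxb4, a gene that expands blood stem cells (NCBI Gene 15412, 96318267 to 96321638). Hoxb3 had 2 further peaks of 6.26-fold (3.54 to 10.4) and 6.45-fold (3.79 to 10.4), each the minimum width of 200 bases and each also in Hoxb3os. All values in groups 2 to 4 other than those of Hoxd3 and Hoxd4 rested on at most 19 fragments.

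Over the 22 peak-carrying Hox genes the median of the highest fold was 7.30, against 8.04 over the 12134 peak-carrying protein-coding genes, and 9 of the 22 stood above 8.04. A peak of at least 10-fold was present in 6 Hox genes (15.4% of 39), against 17.5% of all protein-coding genes. At least 3 peaks were present in 7 Hox genes (17.9%), against 22.6%. These 3 values were close to or below those of all genes. Per length the median was 3.04 peaks per 10 kb in the 22 Hox genes and 0.868 in the 12134 genes, whose median spans were 4831.5 and 25117 bases. Both sets had a median of 2 peaks per gene. Only genes with a peak enter, so a short span alone raises this density. Each gene's interval overlapped that of the next gene in the order of folds, and differences between adjacent ranks were not tested. Hox peaks were wider, with a median of 571.5 bases against 333 over all peaks and 342 over peaks in protein-coding genes. Of the 42, 9 reached 1000 bases (21.4%, against 10.04% of all peaks). Hox peaks were also more deeply covered than all peaks, with a median of 46.5 IP fragments against 29 and a median background of 6.21 against 3.33. No test was made of these differences.

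**Figure D3:**
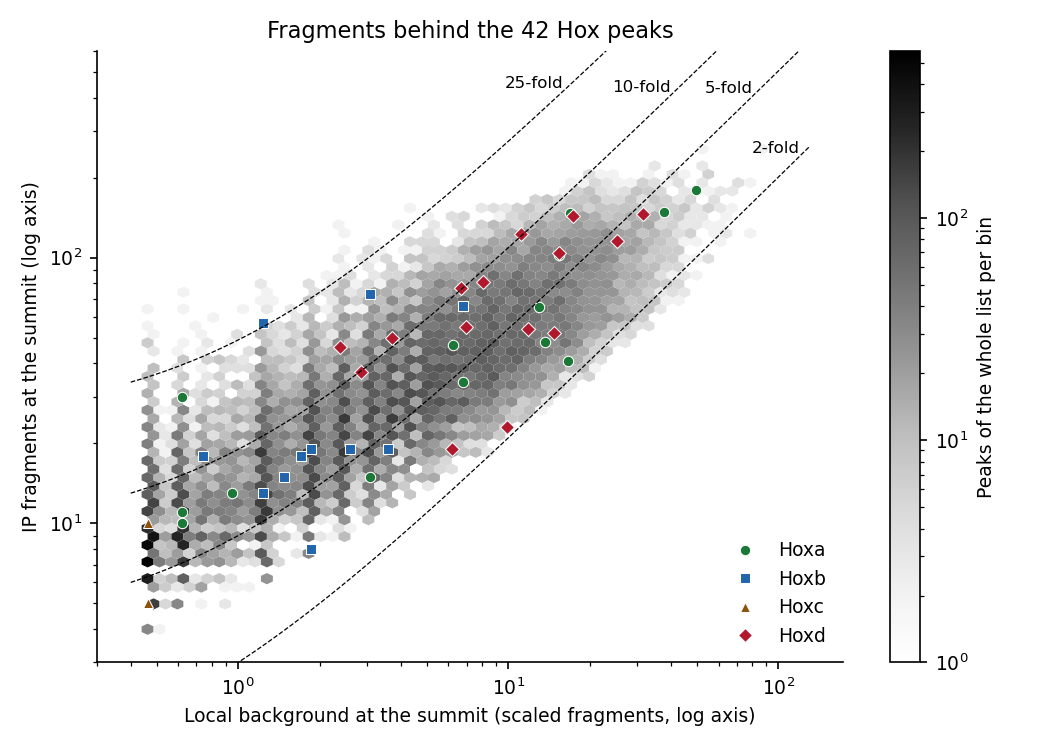
IP fragments at the summit (vertical, log axis) against local background (horizontal, log axis) for the 42 Hox peaks, coloured by cluster, over the density of all 38366 peaks in grey. Dashed lines mark equal fold enrichment. The Hoxc peaks sit at the lowest background, 0.462, and the most covered peak, in Hoxa10, has 180 fragments over 49.4.

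Coverage of the Hox peaks varied over a wider range between clusters than fold enrichment did. The median IP fragments at Hox summits were 44 in Hoxa, 19 in Hoxb, 7.5 in Hoxc and 55 in Hoxd, and the median backgrounds were 9.89, 1.85, 0.462 and 9.88. The median folds of the same peaks were 5.49, 7.01, 5.81 and 7.02. Groups 9 to 11 had a median background of 13.3 over 18 peaks, and groups 5 to 8 one of 2.11 over 12 peaks. The background is drawn from the input around the summit, or is the genome-wide value as at the Hoxc peaks, and is not a measure of expression. Across the 42 Hox peaks, Spearman's rho between fold and background was -0.37, and over all 38366 peaks it was -0.39. The fold contains the background, so the 2 quantities share a term.

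Most Hox summits lay past the midpoint of their gene span. Position was taken along the whole span, so a summit near an internal start can count as late. The Hoxd10 summit 258 bases after the internal start of that gene stood at 72.7% of the span. Of 37 summits in only 1 protein-coding span, 4, 3, 14 and 16 lay in 4 equal parts of the span from start to end. The part beyond the midpoint was 81.1%, against 64.6% for 25589 summits in genes of known strand. The share in the last of the 4 parts was 43.2% against 46.6%. The median position was 71.6% of the span against 70.7%. Within 1000 bases of the gene end lay 9 of the 37 (24.3%, against 15.3%), in genes that are shorter than most: the median span was 3737 bases for the 39 Hox genes and 17198 for all protein-coding genes. The summits in the first part were those near the starts of Hoxa10 and Hoxa11, the lowest peak of Hoxd3 and the first peak of Hoxd11. Whether a summit lies in an exon or an intron was not analysed here.

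**Figure D4:**
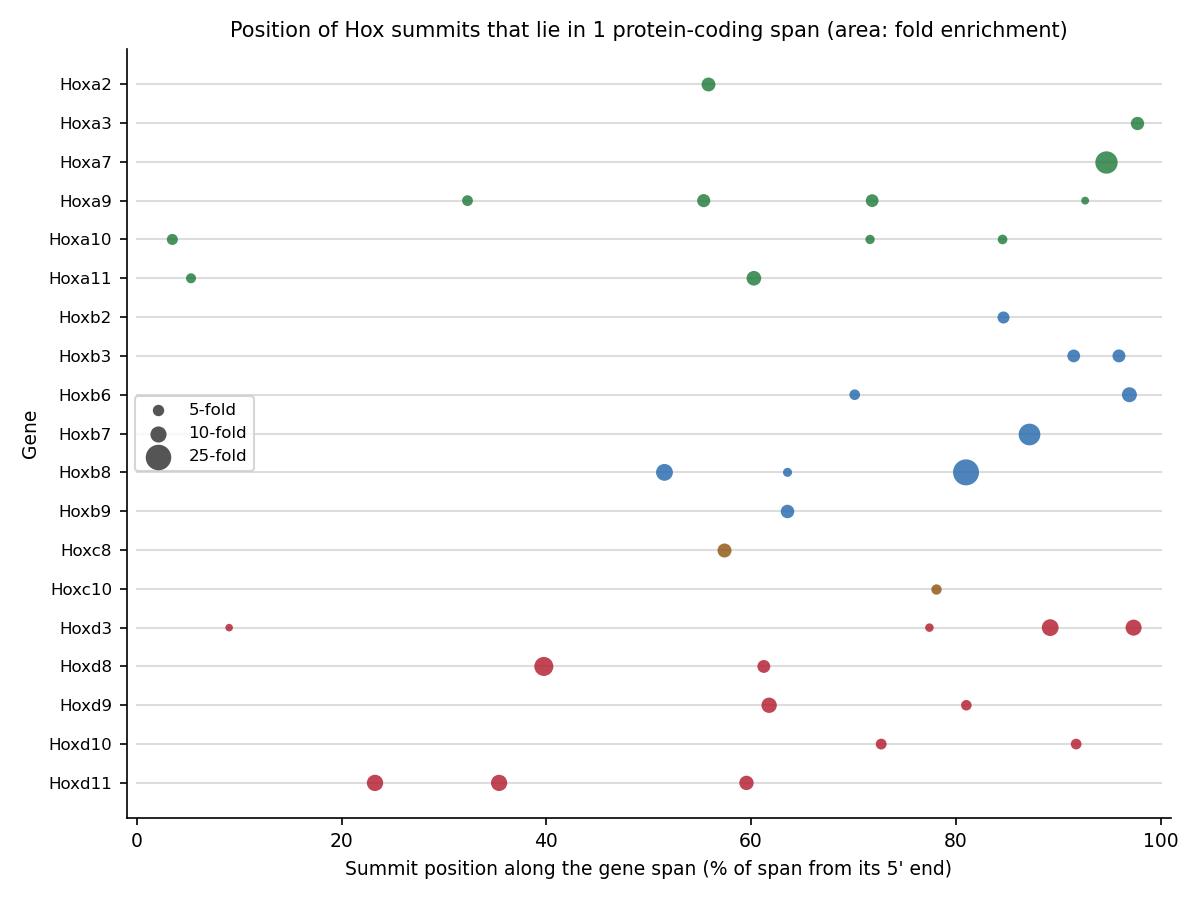
Position of the 37 Hox summits that lie in 1 protein-coding span, as percent of the span from its 5′ end (horizontal axis), with a row per gene, colour for the cluster and point area for fold enrichment. The highest peaks, of Hoxb8, Hoxa7 and Hoxb7, lie at 81.0%, 94.7% and 87.1% of their spans, while Hoxa10 and Hoxa11 each have a peak near the start of the span.

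The clusters also hold non-coding genes, several of them antisense to Hox genes. Of 24 long non-coding RNA genes between the outer Hox genes, 8 held a summit (33.3%, against 12.4% of all such genes). Both shares also count summits that lie in coding spans, and the difference was not tested. For 3 of the 8 every summit was shared with a Hox span, and 5 held one outside. Hoxa11os, the antisense partner of Hoxa11, had 2 such peaks of 5.01-fold (3.57 to 6.86) and 3.51-fold (2.86 to 4.27), the latter with 98 IP fragments. Gm53 upstream of Hoxb9 had 1 peak of 8.07-fold (5.6 to 11.3). No summit lay in Hotair, which is known for acting on the Hoxd locus in human cells, or in Hotairm1, Haglr and Mira. Of the 50 summits between the outer ends of the clusters, 42 lay in Hox spans and 2 lay in no annotated gene, which include the summit before Hoxd9.

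None of the 6 microRNA genes of the clusters held a summit, against 0.896% of all microRNA genes. They are shown because miR-196, encoded beside Hox genes of group 9, is known to direct cleavage of Hoxb8 mRNA, the Hox transcript with the highest fold here. The RefSeq mature sequences (GRCm38.p6) follow, with the seed, bases 2 to 8, in capitals.
mmu-miR-196a-5p: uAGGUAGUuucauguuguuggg
mmu-miR-196b-5p: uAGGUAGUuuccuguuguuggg
mmu-miR-10a-5p: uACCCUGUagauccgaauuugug
mmu-miR-10b-5p: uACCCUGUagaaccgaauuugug
The miR-196 sequences share a seed and the miR-10 sequences share another. The nearest m6A summit lay 2538 bases from miR-196b-5p, 3373 and 2584 bases from the copies of miR-196a-5p of Mir196a-1 and Mir196a-2, 3253 bases from miR-10a-5p and 725 bases from miR-10b-5p, the last in the shared span of Hoxd3 and Hoxd4.

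Hox proteins bind DNA together with TALE homeodomain proteins, the Pbx, Meis and Pknox families. Of these 9 cofactor genes 8 carried a peak (88.9%, 51.8 to 99.7, background 55.7%), and Pbx4 had none. Meis2 reached 13.2-fold (10.8 to 16.0) and Meis1 12.8-fold (10.6 to 15.4), while Pbx3 reached 5.96-fold (3.56 to 9.46) and Pbx2 2.43-fold (1.77 to 3.27). Span lengths differed among the TALE genes. Meis2, with 8 peaks, spans 115861264 to 116067537 on chromosome 2. Pbx2, with 1 peak, spans 34592259 to 34597400 on chromosome 17, and Pbx4, with none, 69832476 to 69872292 on chromosome 8. The part of span length in this count was not tested. The median of the highest fold was 6.74 in the 8 cofactor genes and 7.30 in the Hox genes. The ParaHox genes, sisters of the Hox clusters that act in gut, pancreas and brain, had a peak in 1 of 6, Cdx2 at 4.79-fold (2.19 to 9.62) from 6 fragments. Evx1 and Evx2, homeobox genes beside the Hoxa and Hoxd clusters, had none.

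Of 10 genes known to act with Hoxa10 or Hoxa11 in the uterus, 7 carried a peak (70.0%, 34.8 to 93.3), an interval that holds the background of 55.7%. The highest was the secreted signal Wnt5a at 12.4-fold (9.84 to 15.5). Emx2, a homeobox gene that Hoxa10 represses, reached 7.53-fold (5.67 to 9.80), and Itgb3, an integrin gene that HOXA10 activates in human endometrial cells, 7.41-fold (5.41 to 9.92). The prostaglandin receptor genes Ptger4 and Ptger3, which fail to respond in the stroma of Hoxa10-deficient mice, reached 8.08-fold (6.23 to 10.3) and 7.72-fold (6.17 to 9.55). Pgr, the progesterone receptor gene, reached 7.05-fold (5.89 to 8.37), and the cell-cycle inhibitor gene Cdkn1b 5.22-fold (3.99 to 6.71). Wnt7a, which maintains Hoxa10 and Hoxa11 expression in the female tract, had no peak, and neither did Igfbp1, a decidual marker in humans, or Lif, the cytokine needed for implantation.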

How the data were processed

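The submitters' processing notes name HISAT2 2.2.1, MACS3 3.0.0a7 and mm10. Settings, duplicate removal and total reads were not given in the sources used here. Fold enrichment is the ratio of IP fragments to local background at the summit, and with the −log10 p-value and −log10 q-value it is given as the authors' deposited file has it. The deposited display score was not used further. The lowest −log10 q was 1.32. Per the labels, the libraries were made from total RNA with a strand-keeping kit, but the list gives no strand.

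IP fragments (k) and background were recovered by taking the fold to be (k + 1)/(background + 1) and the p-value to be the Poisson probability of more than k. At 100% of peaks the result matched the deposited −log10 p to 0.001, and at 99.98% it was unique. In 1922 peaks simulated with these same formulas, 100% were recovered, which checks the computation and not the formulas.

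RefSeq (GRCm38.p6, which mm10 shares) gave the gene spans. Its 365 rows off the assembled chromosomes were left out, which left 49632 genes. Coordinates count from 1. Strand came from the RefSeq start windows for 22 Hox genes, and for 17 from the other genes of their cluster. The members and lists were chosen with earlier results of these data known. All 39 members are counted. A Hox gene and a cofactor gene are not reported by name here. Values are given for groups 9 to 13, the highest and most peak-rich gene of each cluster and fixed lists of partners, cluster genes and markers. Others, such as Hoxb6, Hoxa2 and the group 3 and 4 genes, were added after their values were seen. Alternatives kept only peaks of −log10 q 5 or more or of 4-fold or more, merged intervals, linked peaks by 1 base or 50% of their width, or kept summits in 1 gene only. Values were computed with scipy 1.17.1, pandas 2.3.3 and numpy 2.4.6 in Python 3.11.15, and drawn with matplotlib 3.10.9.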

Additional observations from a re-analysis of the deposited data

How the results depend on the processing

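The number of Hox genes with a peak was 22 with peaks of at least 4-fold, with same intervals merged and with overlap of 1 base or of 50% of the peak, and these were the same 22 genes. It was 21 at a −log10 q of at least 5, which removed Hoxc10. With summits in 1 annotated gene only, 15 of the 22 remained, a smaller share of all 39 Hox genes than the background of 51.1%. That difference was not tested. Hoxa6, Hoxa11, Hoxb3, Hoxb4, Hoxb6, Hoxd4 and Hoxd8 had no such summit. The number of Hox peaks ran from 28 with such summits to 44 with overlap of 1 base, against 42. The median of the highest fold ran from 7.30 to 7.47. With overlap of 1 base, Hoxd10 rose from 4.52-fold to 7.93-fold, since the Hoxd11 peak at 74683724 reaches into its span. Of the TALE genes, 6 had a peak of at least 4-fold, without Pbx2 and Pknox1. After seeing the data, 2 settings were added: summits within 250 bases of a span gave 44 peaks in the same 22 genes, and counting shared summits for the shortest Hox span gave the same 22 genes and 42 peaks. No paired analysis was possible because each group holds 1 library. Depth limits most the values that rest on few fragments, such as the 5 of Hoxc10 and the 6 of Cdx2, against a lowest count of 4 over all peaks.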
